A study of Oryza sativa with 8 samples.

Results

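Type-A response regulators are small receiver-domain proteins of the cytokinin pathway, and 10 of their genes in rice, RR1 to RR7 and RR9 to RR11, were followed across 3 genotypes. The members were taken by locus from a list of identifiers, and the deposited values were summed over the transcripts of each locus. Of the 10 genes, 8 were analysed among the 32166 genes of the table; RR5 and RR7 were not analysed here. In the cytokinin pathway, sensor histidine kinases pass phosphate through phosphotransfer proteins to type-B response regulators, which bind DNA and activate genes. Type-A genes are among the early targets of type-B factors, and their proteins restrain the pathway in a feedback loop. Their transcripts are widely used as a readout of cytokinin response.

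Flag leaf RNA of cultivar ZH11 was sequenced in 8 libraries: 3 carried the label GSK2-RNAi, 3 the label GSK2-RNAi oswrky53, and 2 were wild type. The titles of all 8 also carry the tag CK, which was not interpreted here. The label GSK2-RNAi names an RNA interference construct against GSK2, a kinase that restrains brassinosteroid signalling, and the third genotype joins it with a mutation of WRKY53, a transcription factor gene. Plants were grown in a chamber, and harvest was at heading by the sample labels but at booting by the series text. The promoter of the construct, the number of lines and the nature of the mutation were not stated by the labels. Nor do they say that replicate libraries are separate plants, and p-values measure only the spread between these libraries. Below, the 2 labelled genotypes other than the wild type are called the lines, whatever number of lines each holds.

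Counts at the GSK2 locus (Os05g0207500) were not lower under the label GSK2-RNAi. They stood at 98.5 and 105 normalized counts in the wild type and at 741, 795 and 820 in the GSK2-RNAi-labelled libraries. In the GSK2-RNAi oswrky53-labelled ones they were at 155, 182 and 219. Whether reads of the construct are among these counts was not tested. The groups are therefore called by their labels, and no direction below is read as an effect of a lower GSK2 transcript. Counts at GSK2 were 4.24-fold lower in the GSK2-RNAi oswrky53-labelled libraries than in the GSK2-RNAi-labelled ones (limma adjusted p = 0.00067). These groups thus differ in the counts at GSK2 as well as in the oswrky53 label, and the part of each in the differences below was not tested. WRKY53 (Os05g0343400, a pairing of name and identifier that was not checked) was at 3992 and 3209 in the wild type, at 7396, 7843 and 8560 in the GSK2-RNAi-labelled libraries and at 11611, 7686 and 5971 in the GSK2-RNAi oswrky53-labelled ones; a transcript level does not check a mutation whose nature is not stated. Summed normalized counts ran from 25.98 to 28.03 M in the wild type and GSK2-RNAi oswrky53 libraries and from 20.87 to 21.71 M in the GSK2-RNAi-labelled libraries. The smallest steps between low values put the depth at roughly 20.1 to 23.1 M reads in the GSK2-RNAi-labelled libraries. In the other libraries it was roughly 24.1 to 38.5 M, and the part of depth in the results was not tested. Of the leaf markers, summed levels of RCA, CAB1R, CAB2R and PORB were between 487182 and 611014 in the GSK2-RNAi-labelled libraries and at least 852523 in every other library, so the leaf label held in all 8. In bulk RNA, fewer cells of a type and less RNA per cell cannot be told apart.

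The GSK2-RNAi-labelled libraries had lower levels of 5 of the 8 measured members than the wild type, and the GSK2-RNAi oswrky53-labelled libraries had higher levels of those 5 than the GSK2-RNAi-labelled libraries. These were RR2, RR4, RR6, RR9 and RR10. Of all genes tested 11.6% were lower in the first comparison and 8.78% were higher in the second. The mean of RR4 (in normalized counts) was 2763 ± 177 in wild type libraries (SD, n = 2) and 534 ± 53.1 in the GSK2-RNAi-labelled libraries (SD, n = 3), which is 5.17-fold lower. RR10 went from 1688 ± 287 to 345 ± 35.5, which is 4.89-fold lower. RR2 was 2.08-fold lower, the smallest of the 5 differences. RR1 was lower without passing the test, and RR3 and RR11 were low in every library.

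RR4 (Os01g0952500, chromosome 1) was at 2888 and 2637 normalized counts in the wild type, and at 516, 493 and 594 in the GSK2-RNAi-labelled libraries. In the GSK2-RNAi oswrky53-labelled libraries it was at 2176, 1601 and 2246. The 3 groups did not overlap: the wild type was highest, GSK2-RNAi oswrky53 stood between, and GSK2-RNAi was lowest. Against the wild type, RR4 fell by 2.37 ± 0.17 on the log2 scale in the GSK2-RNAi-labelled libraries (± SE; by limma, adjusted p = 0.000257). It rose by 1.90 ± 0.15 in the GSK2-RNAi oswrky53-labelled libraries relative to the GSK2-RNAi-labelled ones (± SE; by limma, adjusted p = 0.000984).

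RR9 (Os11g0143300) and RR10 (Os12g0139400) are near-identical copies on chromosomes 11 and 12, and loss of both genes is known to raise salt tolerance in rice. The authors' counting could split or share reads between them, so each separate value is uncertain. RR10 was at 1485 and 1891 normalized counts in the wild type, at 353, 306 and 376 in the GSK2-RNAi-labelled libraries, and at 2515, 2019 and 2441 in the GSK2-RNAi oswrky53-labelled ones. RR9 was at 504 and 499 in the wild type, at 172, 148 and 236 in the GSK2-RNAi-labelled libraries, and at 995, 655 and 1143 in the GSK2-RNAi oswrky53-labelled ones. For both genes the order was GSK2-RNAi, wild type, GSK2-RNAi oswrky53, with no overlap between groups.

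RR10 fell by 2.28 ± 0.16 on the log2 scale in the GSK2-RNAi-labelled libraries against the wild type (± SE; by limma, adjusted p = 0.000253), and RR9 fell by 1.46 ± 0.26 (adjusted p = 0.00618). Between the 2 lines, RR10 was 6.74-fold and RR9 5.02-fold higher in the GSK2-RNAi oswrky53-labelled libraries (limma adjusted p = 0.0003 and 0.00182). Summing the 2 copies into 1 feature, which does not depend on how reads were split between them, gave a fall of 2.05 ± 0.18 and then a rise of 2.61 ± 0.16 on the log2 scale (± SE; by limma, adjusted p = 0.000579 and 0.000451).

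RR6 (Os04g0673300, chromosome 4), whose overexpression is known to make rice less sensitive to cytokinin, was at 266 and 390 normalized counts in the wild type and at 140, 93.9 and 145 in the GSK2-RNAi-labelled libraries. It was at 644, 482 and 662 in the GSK2-RNAi oswrky53-labelled libraries. Here too every GSK2-RNAi library lay below the wild type and every GSK2-RNAi oswrky53 library above it. The fall against the wild type was 1.37 ± 0.26 on the log2 scale, SE, and the rise between the lines was 2.24 ± 0.23 (limma adjusted p = 0.0071 and 0.00182).

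RR2 (Os02g0557800, chromosome 2), known as a target that the crown root factor WOX11 represses, was at 4969 and 5966 normalized counts in the wild type and at 2593, 2346 and 2964 in the GSK2-RNAi-labelled libraries. In the GSK2-RNAi oswrky53-labelled libraries it was at 6216, 4895 and 6139, which overlapped the wild type and not the GSK2-RNAi-labelled libraries. RR2 fell by 1.05 ± 0.17 on the log2 scale relative to wild type and rose by 1.12 ± 0.15 between the lines (± SE; by limma, adjusted p = 0.00371 and 0.00402). When libraries were scaled to equal totals, the median of all genes in the first contrast moved to 0.40 on the log2 scale, and RR2 fell by 0.67 (limma adjusted p = 0.0163). Its fall thus varied by over 1.5 times with the scaling.

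Transcript rows showed where the sums came from. RR2 had 2 rows, of which the second carried between 92.4% and 97.7% of the locus in every library. The first row of RR2 held 7.57% and 5.40% of the locus in the wild type, between 2.29% and 4.32% in the GSK2-RNAi-labelled libraries and between 3.87% and 4.96% in the GSK2-RNAi oswrky53-labelled ones. In RR9 the first row carried between 92.3% and 98.0% of the locus. RR4, RR6, RR10, RR3 and RR11 had a single row each.

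**Figure D1:**
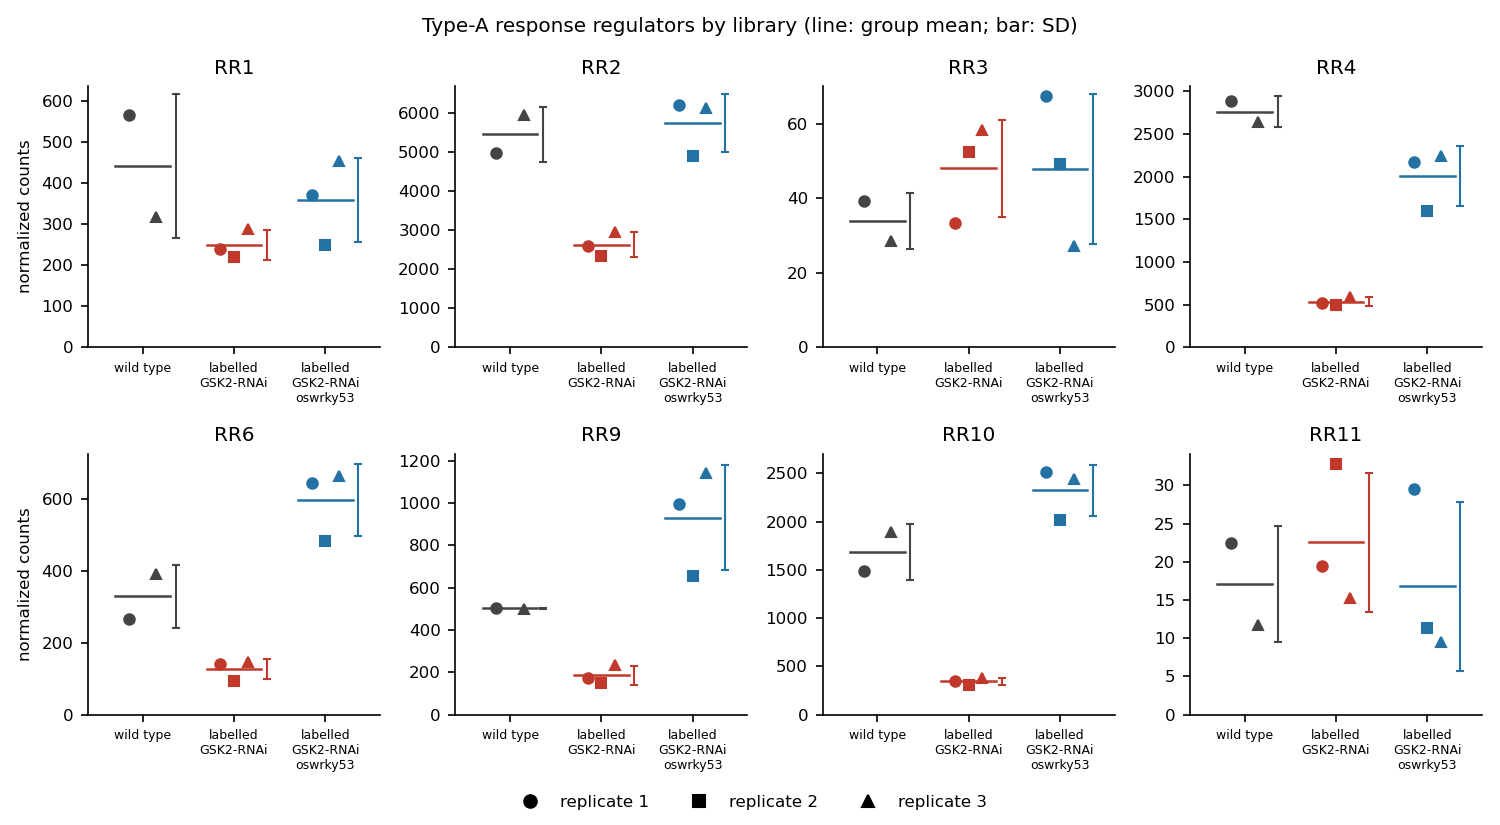
Normalized counts of the 8 measured type-A response regulators (y axis, linear from 0) in each library, grouped by label (x axis); symbols mark the replicate number, lines the group mean and bars the SD (n = 2 for the wild type, n = 3 for the others). RR2, RR4, RR6, RR9 and RR10 are lowest in all 3 GSK2-RNAi-labelled libraries, while RR3 and RR11 overlap across groups.

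RR1 (Os04g0442300, chromosome 4), whose protein is known to pair with the flowering regulator Ehd1, was at 565 and 317 normalized counts in the wild type and at 240, 219 and 289 in the GSK2-RNAi-labelled libraries. In the GSK2-RNAi oswrky53-labelled libraries it was at 372, 250 and 454, which overlapped both other groups. The log2 fold change of the GSK2-RNAi-labelled libraries against the wild type was -0.77, with a 95% interval from -1.48 to -0.07, and stayed above the threshold (limma adjusted p = 0.102). The 2 wild type libraries differed widely, and without wild type replicate 3 the value was -1.19 and passed (limma adjusted p = 0.0456). Without wild type replicate 1 it was -0.36 (limma adjusted p = 0.5), and with libraries scaled to equal totals it was -0.39 (limma adjusted p = 0.351). Between the lines RR1 differed by 0.49 (95% interval -0.14 to 1.12, limma adjusted p = 0.258).

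RR3 (Os02g0830200) and RR11 (Os02g0631700), both on chromosome 2, were the members with the fewest counts. RR3 ranged from 28.6 to 39.3 normalized counts in the wild type, from 33.5 to 58.4 in the GSK2-RNAi-labelled libraries and from 27.1 to 67.4 in the GSK2-RNAi oswrky53-labelled ones. RR11 ranged from 11.7 to 22.5, from 15.3 to 32.8 and from 9.54 to 29.5 in the same order. All 3 groups overlapped for both genes. With so few counts the intervals were wide: against the wild type, the GSK2-RNAi-labelled libraries differed by 0.47 for RR3 (95% interval -0.52 to 1.45) and by 0.38 for RR11 (95% interval -0.97 to 1.72) on the log2 scale. The interval of RR11 overlaps those of RR2 (-1.44 to -0.67), RR6 (-1.96 to -0.78) and RR9 (-2.06 to -0.85), and not those of RR4 and RR10. The interval of RR3 lies above those of RR2, RR4, RR6, RR9 and RR10. The differences between genes were not tested.

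Of all 25325 genes tested, 24.8% changed in the GSK2-RNAi-labelled libraries against the wild type, with 11.6% lower and 13.3% higher. Among the members 5 of 8 fell and 0 rose. In the comparison of the 2 lines, 16.5% of all genes changed with 8.78% higher and 7.7% lower, against 5 of 8 members that rose and 0 that fell. The median log2 fold change of the 8 members was -1.21 in the first comparison, where that of all genes was 0.02, and 1.51 in the second, where that of all genes was -0.01. The 2 comparisons share the 3 GSK2-RNAi-labelled libraries, so a low value there enters both. Groups did not overlap, with the GSK2-RNAi libraries below the wild type, for 6 of 8 members and for 26.2% of all genes, and with the GSK2-RNAi libraries above the wild type for 0 of 8 and for 29.1%. Between the lines the figures were 5 of 8 and 20% upward and 0 of 8 and 19.1% downward. The number of genes changed was 6290 in the first comparison but 3670 without GSK2-RNAi replicate 2 and 3727 with wild type replicate 1 left out, and with these libraries left out the members that fell still numbered 5. Between the lines 4172 genes changed, and 2374, 1575 and 2136 without GSK2-RNAi replicate 1, 2 and 3, 2302 without GSK2-RNAi oswrky53 replicate 3 and 7338 with equal totals, of which 15.6% were higher. The members that rose numbered 5 under each of these settings.

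**Figure D2:**
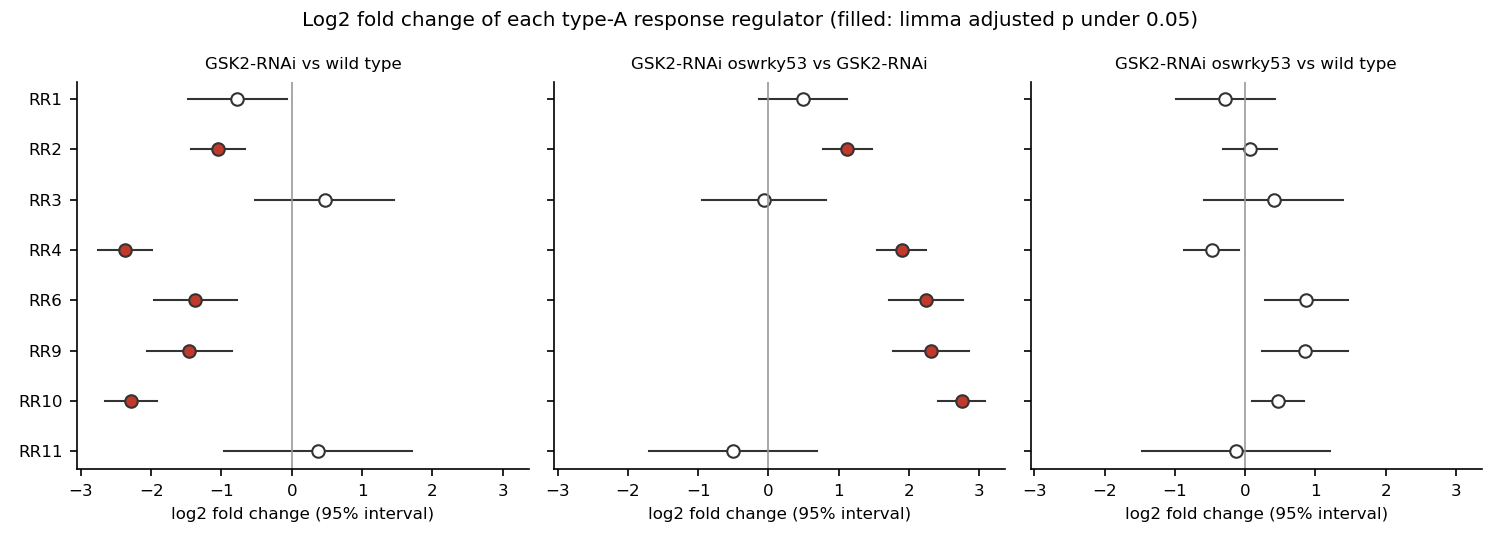
Log2 fold change (x axis, with 95% interval) of each measured member (y axis) in the 3 comparisons; filled points passed limma's adjusted p under 0.05. The 5 filled members stand between -2.37 and -1.05 in the first panel and between 1.12 and 2.75 in the second, and no point is filled in the third.

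The GSK2-RNAi oswrky53-labelled libraries were also compared directly with the wild type. By limma 0 of 8 members passed the adjusted threshold, and 0.336% of all genes did (85 of 25325), with 0.308% higher and 0.0276% lower. At an unadjusted p under 0.05 there were 4 of 8 members, RR4, RR6, RR9 and RR10, and 13% of all genes. RR4 stood lower, by -0.48 on the log2 scale (95% interval -0.86 to -0.09, limma adjusted p = 0.299). RR6, RR9 and RR10 stood higher, by 0.87, 0.85 and 0.47 (limma adjusted p = 0.229, 0.248 and 0.286). RR2 differed by 0.07, with a 95% interval from -0.31 to 0.45. In RR6, RR9 and RR10 all 3 GSK2-RNAi oswrky53-labelled libraries exceeded both wild type libraries, and 15.7% of all genes were placed so. In RR4 all 3 lay below both, as did 11.6% of all genes.

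Ratios between members within a library do not depend on how libraries are scaled. In these libraries the ratios below were not constant, and no share of all gene pairs was computed beside them. The pairs were chosen after their values were seen. RR10 to RR4 was 0.514 and 0.717 in the wild type, 0.684, 0.622 and 0.634 in the GSK2-RNAi-labelled libraries, and 1.16, 1.26 and 1.09 in the GSK2-RNAi oswrky53-labelled ones. The wild type and GSK2-RNAi values overlapped, and the GSK2-RNAi oswrky53 values lay above both. RR2 to RR4 was 1.72 and 2.26 in the wild type, 5.03, 4.76 and 4.99 in the GSK2-RNAi-labelled libraries and 2.86, 3.06 and 2.73 in the GSK2-RNAi oswrky53-labelled ones, so its 3 groups were apart.

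RR6 to RR4 was 0.0922 and 0.148 in the wild type, 0.271, 0.191 and 0.245 in the GSK2-RNAi-labelled libraries and 0.296, 0.301 and 0.295 in the GSK2-RNAi oswrky53-labelled ones. It was thus lowest in the wild type, with no overlap between groups. The ratio of the 2 copies, RR9 to RR10, was 0.34 and 0.264 in the wild type, 0.488, 0.484 and 0.627 in the GSK2-RNAi-labelled libraries and 0.396, 0.324 and 0.468 in the GSK2-RNAi oswrky53-labelled ones. In the GSK2-RNAi-labelled libraries it was above every other library, and it rests on the uncertain split of reads between the copies. The two-sided exact permutation test of 3 libraries against 3 cannot give a p below 0.1, nor that of 3 against 2 below 0.2, so these ratios are a description.

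**Figure D3:**
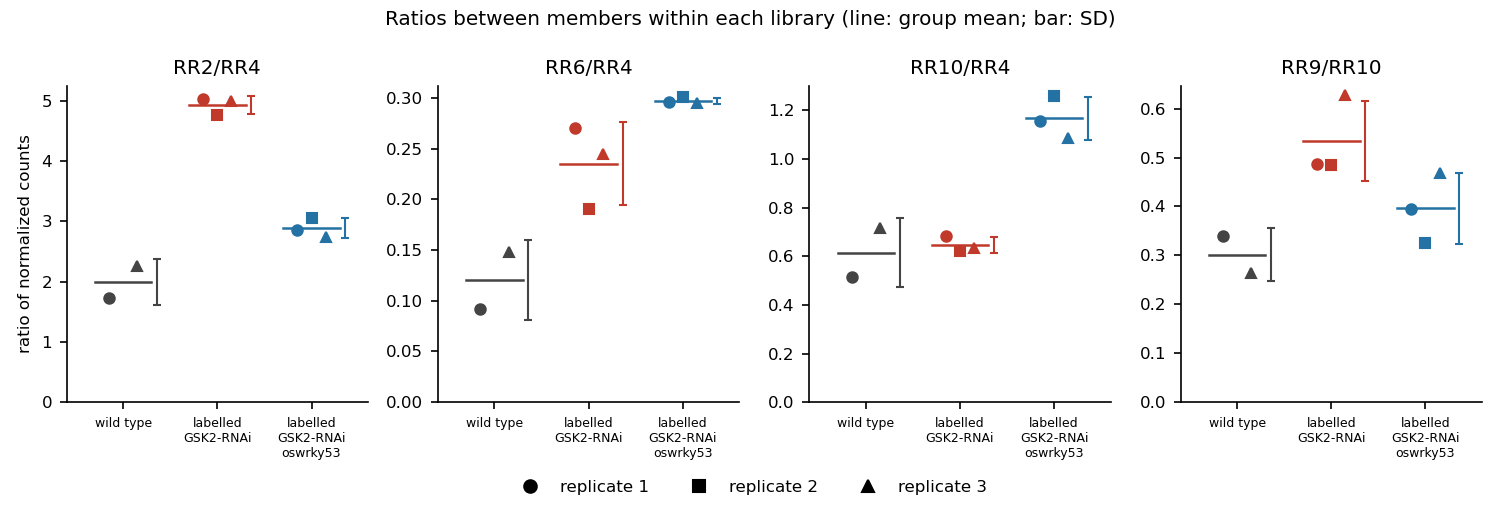
Ratio of normalized counts between 2 members (y axis, linear from 0) within each library, by label (x axis); symbols mark the replicate number, lines the group mean and bars the SD (n = 2 or 3). RR10/RR4 is above 1 only in the 3 GSK2-RNAi oswrky53-labelled libraries, and RR2/RR4 is highest, between 4.76 and 5.03, in the GSK2-RNAi-labelled ones.

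Across the 8 libraries, Pearson's r of log2 values between members was 0.98 for RR2 with RR10, 0.98 for RR6 with RR9 and 0.94 for RR4 with RR10. RR3 and RR11 had r between -0.47 and -0.14 with RR2, RR4, RR6, RR9 and RR10. These values describe 8 libraries that fall into 3 groups and share a scaling. Among 19080 other genes with a mean of at least 50, RR2 ranked 7 for likeness to RR10, RR6 ranked 30, RR9 ranked 45, RR4 ranked 205 and RR1 ranked 4580. For likeness to RR4 the members ranked lower: RR2 310, RR10 565, RR9 1791, RR6 2179 and RR1 3159. The leaf markers RCA, PORB, CAB1R and CAB2R, outside the naming rule for likeness, ranked 271, 1382, 1465 and 6978 for RR4. For RR10 they ranked 954, 412, 136 and 5535. RCA thus stood ahead of every member for RR4, and CAB1R ahead of RR4 for RR10. The closest nonmembers were Os06g0137600 and Os03g0856700 for RR10, both with r = 0.99, and Os06g0687600 and Os05g0564200 for RR4, also both with r = 0.99; the files give these identifiers no name. GSK2, which the naming rule does not cover, had r = -0.99 with RR4 and -0.91 with RR10.

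The rest of the cytokinin pathway was read from a list of 51 genes, of which 26 had a checked name and values, and 22 passed the filter on low values. In the GSK2-RNAi-labelled libraries against the wild type 7 of 22 rose and 4 fell, in the presence of 24.8% of all genes changed. The median log2 fold change of the 22 was 0.27. The number called was 11 in all, and 4, 5, 6, 5 and 7 without wild type replicate 1, wild type replicate 3, GSK2-RNAi replicate 1, GSK2-RNAi replicate 2 and GSK2-RNAi replicate 3. It was also 7 with only the highest transcript of each gene. Without wild type replicate 1 the calls of HK3, HK4, PHP2, RR21, RR22, RR23, LOG and CKX4 were lost (limma adjusted p from 0.056 to 0.13), while some log2 fold changes stayed as large, such as 0.71 for HK3, -1.74 for PHP2 and -1.24 for CKX4.

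Among the receptors, the histidine kinase gene HK3 (Os01g0923700) rose by 0.67 ± 0.16 on the log2 scale and HK4 (Os03g0717700) fell by 0.79 ± 0.20 (± SE; by limma, adjusted p = 0.0162 and 0.0218). The call of HK3 was lost under 3 of 20 alternatives and that of HK4 under 8, among them equal totals, where HK4 was at -0.40 (limma adjusted p = 0.147). HK5 differed by 0.26 (limma adjusted p = 0.417). The type-B genes encode the DNA-binding activators upstream of the type-A genes. Of the 4 tested 3 rose, where 13.3% of all genes were higher, and RR25, RR26 and RR27 of the list were not tested. RR22 (Os06g0183100) was at 90.7 and 105 normalized counts in the wild type, at 189, 216 and 162 in the GSK2-RNAi-labelled libraries and at 104, 162 and 116 in the GSK2-RNAi oswrky53-labelled ones. RR22, RR23 and RR21 rose by 0.94, 0.81 and 0.47 on the log2 scale in the GSK2-RNAi-labelled libraries against the wild type (limma adjusted p = 0.0228, 0.0124 and 0.0393). These calls were lost under 5, 2 and 9 of 20 alternatives. RR24 differed by 0.16 (limma adjusted p = 0.436). Between the lines 0 of the 4 tested type-B genes passed by limma, where 16.5% of all genes did. RR22 and RR23 had an unadjusted p under 0.05, as did 32.4% of all genes. PHP2 (Os05g0186100), of the pseudo-phosphotransfer proteins that inhibit the relay, fell by 1.59 (limma adjusted p = 0.0451), a call lost under 11 of 20 alternatives.

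Genes that make cytokinin active moved in both directions. LOG (Os01g0588900) and its homologue LOGL9 (Os09g0547500) encode phosphoribohydrolases that release the free base from its nucleotide. LOG was at 22814 and 16136 normalized counts in the wild type, at 8938, 7597 and 10895 in the GSK2-RNAi-labelled libraries and at 21852, 14538 and 23019 in the GSK2-RNAi oswrky53-labelled ones. It fell by 1.08 ± 0.27 and then rose by 1.10 ± 0.24 on the log2 scale (± SE; by limma, adjusted p = 0.0216 and 0.0197). Its fall was lost under 6 of 20 alternatives and its rise under 4. With equal totals the first fold change was -0.70 (limma adjusted p = 0.0721), and with quantile normalization the fold changes were -0.60 and 0.69 (limma adjusted p = 0.117 and 0.0681). LOGL9 was at 13.0 and 15.2 in the wild type, at 330, 346 and 447 in the GSK2-RNAi-labelled libraries, and at 40.8, 48.2 and 124 in the GSK2-RNAi oswrky53-labelled ones. Its 3 groups did not overlap. It rose by 4.62 ± 0.44 and then fell by 2.55 ± 0.39 between the lines (± SE; by limma, adjusted p = 0.000644 and 0.0061), and both calls were kept under all 20 alternatives. LOGL10 rose by 1.10 between the lines (limma adjusted p = 0.018).

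Cytokinin oxidase genes, whose enzymes degrade the hormone, were also divided. CKX11 (Os08g0460600) was at 3498 and 1735 normalized counts in the wild type, at 6582, 9055 and 6410 in the GSK2-RNAi-labelled libraries and at 4317, 2780 and 3826 in the GSK2-RNAi oswrky53-labelled ones. It rose by 1.56 ± 0.31 on the log2 scale, and CKX9 by 1.22 ± 0.21, in the GSK2-RNAi-labelled libraries against the wild type (± SE; by limma, adjusted p = 0.00953 and 0.00487). CKX4 (Os01g0940000) fell by 1.13 ± 0.31 in that comparison and rose by 1.26 ± 0.28 between the lines (± SE; by limma, adjusted p = 0.0299 and 0.0192). The calls of CKX9 and CKX11 against the wild type were kept under all 20 alternatives, and that of CKX4 was lost under 9 of them. Between the lines the call of CKX11 was lost under 7 of 20 and that of CKX4 under 3.

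Between the lines 4 of the 22 genes rose, PHP1, LOG, LOGL10 and CKX4, and 2 fell, LOGL9 and CKX11, where 16.5% of all genes changed. This number was 6 in all, 3 without GSK2-RNAi replicate 1, 1 without GSK2-RNAi replicate 2 and 2 without GSK2-RNAi oswrky53 replicate 3. It was 10 with libraries scaled to equal totals. Without GSK2-RNAi replicate 2 the calls of PHP1, LOG, LOGL10, CKX4 and CKX11 were lost (limma adjusted p from 0.0703 to 0.147). Between the GSK2-RNAi oswrky53-labelled libraries and the wild type 0 of 22 passed by limma, where 0.336% of all genes did. At an unadjusted p under 0.05 there were 4 of 22, LOGL9, LOGL10, CKX2 and CKX9, and 13% of all genes.

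**Figure D4:**
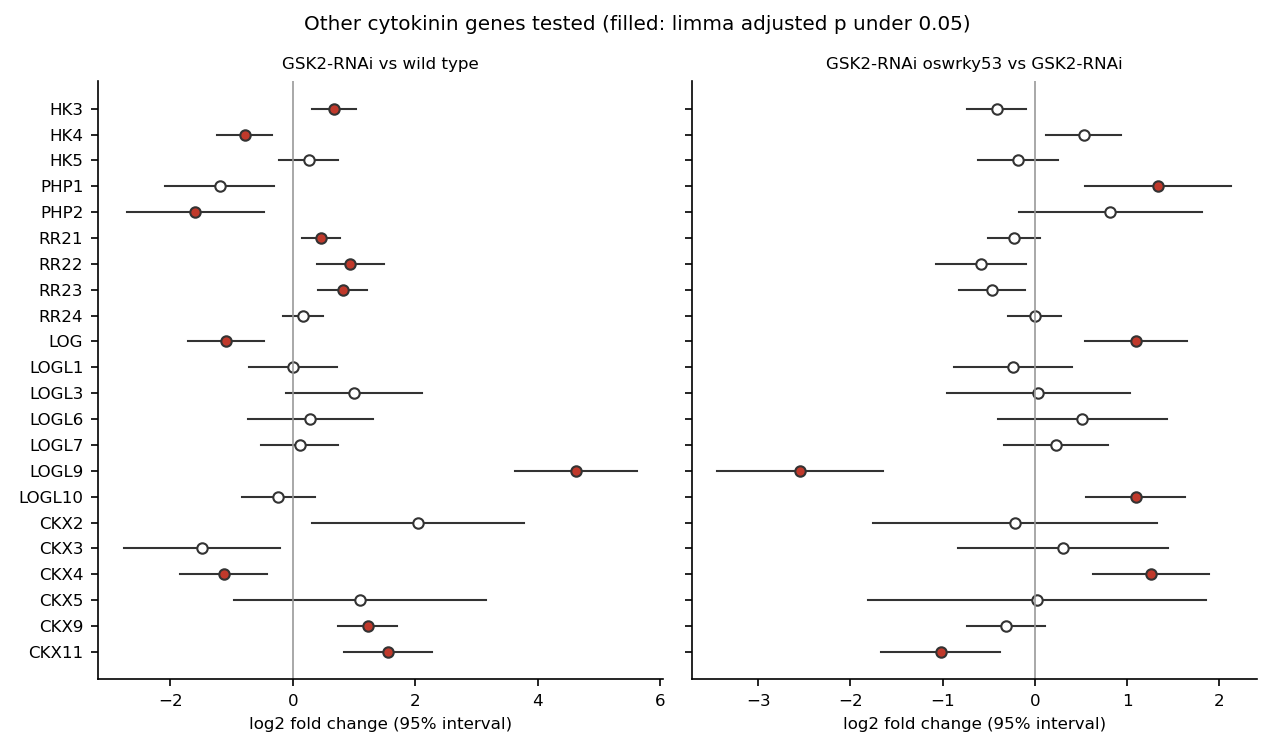
Log2 fold change (x axis, with 95% interval) of the 22 other cytokinin genes tested (y axis) in the GSK2-RNAi-labelled libraries against the wild type and between the 2 lines; filled points passed limma's adjusted p under 0.05. LOGL9 is at 4.62 in the first panel and at -2.55 in the second, and the type-B genes RR21, RR22 and RR23 are to the right of 0 in the first.

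Markers of other tissues were read beside these results, since type-A genes are also expressed in meristems, roots and panicles. The summed level of the dividing-cell markers CYCB2-2, CDKB2-1 and PCNA ran from 180 to 303 normalized counts in the wild type, from 250 to 264 in the GSK2-RNAi-labelled libraries and from 288 to 364 in the GSK2-RNAi oswrky53-labelled ones. Here the wild type and GSK2-RNAi groups overlapped. The meristem genes OSH1 and OSH15 summed to at most 10.4 in any library. Of 6 floral and panicle genes 3 were under 10 in every library; their sum ran from 188 to 351, from 324 to 415 and from 124 to 541 in the same order of groups. MADS3 was the floral gene that passed a test, and it fell by 2.83 on the log2 scale between the lines (limma adjusted p = 0.012). It passed the filter on low values only through the GSK2-RNAi-labelled libraries, at 16.2, 21.6 and 51.8 normalized counts. It was at 8.68 and 5.69 in the wild type and at 3.30, 3.28 and 2.09 in the GSK2-RNAi oswrky53-labelled libraries. The filter thus favoured a fall between the lines, and no conclusion is drawn from this call. Of the pollen and anther genes, TDR fell by 1.48 in the GSK2-RNAi-labelled libraries against the wild type and rose by 1.36 between the lines (limma adjusted p = 0.0127 and 0.0173). Neither call held throughout. The first was lost without wild type replicate 1 (limma adjusted p = 0.0759), and the second without GSK2-RNAi replicate 2, GSK2-RNAi replicate 3 or GSK2-RNAi oswrky53 replicate 3 (limma adjusted p = 0.0563, 0.0553 and 0.0591). The other pollen and anther gene used, CYP703A3, was at -0.21 and -0.30 in these comparisons (limma adjusted p = 0.779 and 0.661). The root silicon channel gene LSI1 ran from 256 to 400 over all libraries. The leaf gene PORB moved with the members: it fell by 1.41 and rose by 1.26 (limma adjusted p = 0.00586 and 0.0103). The leaf genes RCA, CAB1R and CAB2R were at -1.12, -0.71 and -0.53 and then at 0.79, 0.81 and 0.81. They did not pass by limma in either comparison. For RCA and CAB1R every GSK2-RNAi-labelled library still lay below every other library, while for CAB2R they overlapped the wild type. The GSK2-RNAi libraries lay below the wild type for 26.2% of all genes and below the GSK2-RNAi oswrky53 libraries for 20%. The part of these markers in the results was not tested.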

How the data were processed

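Per the labels, total RNA of flag leaves was made into Illumina TruSeq libraries. The deposited signal values are normalized counts, 1 per transcript and library. Build IRGSP-1.0 and the tools DESeq2 1.26.0 and kallisto 0.46.1 appear, per the submitters' processing notes, with no role or order. How values were normalized, and on which annotation, is not given in the sources used here. Small values lay near multiples of a step taken as about 1 read (between 81.2% and 99.5% of values up to 8 steps lay within 0.1 step), so whole reads could not be recovered and count models were left out.

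Values were summed per gene, and the 25325 genes that reached 10 in 2 or more libraries were tested. All 8 measured members passed. Contrasts of 3 group means were fitted with limma 3.58.1 (R 4.3.3; eBayes with trend) to log2(value + 1) across all 8 libraries, which understates the change of low genes, and a Benjamini-Hochberg adjusted p under 0.05 over all genes was called a change. Folds are ratios of group means; values are not per length, so levels of different genes are not compared. The fit was tested on simulated data. Other steps used Python 3.11.15, pandas 2.3.3, numpy 2.4.6, scipy 1.17.1 and matplotlib 3.10.9.

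The members and gene lists were chosen with earlier results of these data known. Named genes are all members, the called genes of the cytokinin list, and for likeness the 2 nonmember identifiers most like RR4 and RR10 in log2 values. Gene names were paired with identifiers by hand and kept where the RefSeq table (assembly ASM3414082v1) holds the symbol for 1 gene, on the same chromosome and in matching order, which held for 28 of 51 cytokinin and 21 of 26 marker genes; this cannot tell neighbours apart. Of the 8 measured members 7 names passed; RR3 was not checked, nor was WRKY53. Other genes with no checked name were not used. HK5, RR24, CKX2 and the marker genes given with a test were named after their values were seen.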

Additional observations from a re-analysis of the deposited data

How the results depend on the processing

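The calls of RR2, RR4, RR6, RR9 and RR10 kept their direction and their side of the threshold in all 98 refitted values of the GSK2-RNAi-labelled libraries against the wild type (highest limma adjusted p 0.0462) and in all 98 between the lines (highest 0.0218). The refits changed the pseudocount, the filter, the scaling, the trend, the groups fitted, the transcripts summed and the libraries left out. Where a wild type library was left out, the remaining one was assumed to vary like the other groups. Members called numbered 4 once RR9 and RR10 were summed, and none was called against the wild type in the GSK2-RNAi oswrky53-labelled libraries under any setting run. RR1 was the only member whose call changed, without wild type replicate 3.

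With libraries scaled to equal totals, all genes called numbered 9515 in the GSK2-RNAi-labelled libraries against the wild type, of which 84.6% were higher (53.5% with the deposited scaling), and 7338 between the lines, of which 15.6% were higher (53.3% with the deposited scaling); 10 other cytokinin genes were called between the lines. With only the highest transcript 7 other cytokinin genes were called against the wild type. For GSK2-RNAi oswrky53 against the wild type, all genes called numbered 56 with a mean of at least 50 and 47 with only the 2 groups fitted. With the replicate number as a block, all genes called numbered 3894, 2621 and 32 in the 3 comparisons, and 7 other cytokinin genes were called in the first. Deviations of same-numbered libraries from their group means had r from -0.21 to 0.15. Such deviations cancel within each small group, so these r cannot tell whether the numbers pair the libraries. The cause of these shifts was not tested.

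Leaving out each library in turn gave between 3670 and 6911 genes called in the GSK2-RNAi-labelled libraries against the wild type, between 1575 and 4354 between the lines and between 53 and 64 in the third comparison; other cytokinin genes called ranged from 4 to 12 and from 1 to 6. Values near 0 changed sign. RR3 between the lines was at 0.020 with quantile normalization and ranged from -0.35 to 0.29 without a library, RR11 ranged from -0.066 to 0.82 against the wild type in the GSK2-RNAi-labelled libraries, and in the third comparison RR1 ranged from -0.70 to 0.13, RR2 from -0.062 to 0.20 and RR11 from -0.60 to 0.31. RR3 and RR11 reached at most 67.4 normalized counts, and the effect of depth on them was not tested.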

Other observations

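Within both lines the library numbered 2 held the lowest value of RR1, RR2, RR4, RR6, RR9 and RR10, that is of 6 of the 8 members. The share of all genes lowest in that library was not computed. These 6 are also correlated with each other over the libraries (r from 0.54 to 0.98), so they are not separate observations. In the libraries labelled GSK2-RNAi oswrky53, RR4 was at 1601 normalized counts in that library against 2176 and 2246 in the others, and RR9 was at 655 against 995 and 1143. The second transcript row of RR1 was listed at 0 in 7 libraries and at 48.1 normalized counts, 19.3% of the locus, in GSK2-RNAi oswrky53 replicate 2.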
